A study of Homo sapiens with 6 samples.

Results

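The relaxins RLN1, RLN2 and RLN3 and the receptors RXFP1 and RXFP2 were followed through 6 human prostate cancer cell lines by total RNA sequencing. The 5 genes were taken from the deposited tables by name, each matched 1 entry, and they are 5 of 47032 gene symbols. They were selected on measured values, the RLN1 levels in these libraries, which differ in opposite directions in the LAPC4 and LnCaP pairs, so their levels and changes are described without a test. The castration-sensitive lines are LnCaP, VCaP and LAPC4, and each has a castration-resistant partner that carries its name: LnCaP-abl, VCaP-CR or LAPC4-CR. The medium was RPMI for LnCaP and for LAPC4 and DMEM for VCaP, with 10% fetal bovine serum. The 3 resistant lines were all grown in RPMI with 10% serum that had been charcoal-stripped, which depletes steroids, plus B27 supplement, and the labels name no other treatment. Each line is a single library, so state and medium cannot be told apart, and no value has a replicate. Lines in culture lack the surrounding tissue of a tumour, and in RNA from a whole culture fewer expressing cells and less RNA per cell cannot be told apart.

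Relaxins are small paired-chain peptide hormones of the insulin superfamily, made as prohormones and cut by convertases. RLN2 encodes the circulating relaxin of human pregnancy and the relaxin that the prostate adds to seminal fluid. RLN1 is its neighbouring duplicate, found in apes and humans and transcribed in few tissues, the prostate among them. RLN3 encodes a neuropeptide. RXFP1 is the receptor of relaxin and signals largely through Gs and cyclic AMP, and RXFP2 is the receptor of the testicular hormone INSL3 and also binds relaxin.

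RLN1 and RLN2 lie side by side on chromosome 9, and their sequences are shown first because the results turn on telling them apart. In the deposited tables (build hg18 per the submitters' processing notes) RLN1, ENSG00000107018, occupies chr9:5324969-5329873 and RLN2, ENSG00000107014, occupies chr9:5289868-5294969. No other entry of the tables overlaps either of them. Over their 555-base coding sequences in GENCODE release 29 the genes were identical at 501 positions (90.3%) and differed at 54, with no gap, and the longest identical stretch was 128 bases. The 90-base stretch with the most differences lies in exon 2 of both, at coding bases 253 to 342, and holds 17 of them. It is printed 5′ to 3′ on the minus strand of GRCh38, from chr9:5335467-5335556 for RLN1 and chr9:5300314-5300403 for RLN2, with capitals at the bases that differ.
RLN1: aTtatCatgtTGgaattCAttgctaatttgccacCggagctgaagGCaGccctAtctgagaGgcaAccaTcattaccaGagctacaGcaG
RLN2: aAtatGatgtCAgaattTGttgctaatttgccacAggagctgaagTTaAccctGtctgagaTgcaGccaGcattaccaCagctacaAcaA

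These differences bear on how many reads can be placed on 1 gene. Of the 50-base words of the RLN1 transcript of 967 bases, 88.9% did not occur in any RLN2 transcript, and 83.9% of its 35-base words and 76.7% of its 25-base words did not. For the RLN2 transcript of 1177 bases the same shares were 91.0%, 86.9% and 80.9%. Words were compared exactly, so 1 differing base sufficed, and an aligner that allows mismatches may place fewer reads on 1 gene. Neither the read length nor the treatment of reads that match both genes was stated in the labels, so a part of each count is uncertain.

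The sequences before the starts of both genes are as alike as their coding sequences. In the RefSeq windows of 250 bases before the start (GRCh38.p14, minus strand, chr9:5339877-5340126 for RLN1 and chr9:5304717-5304966 for RLN2), 221 of 247 aligned bases were identical (89.5%), 26 differed and 2 were gapped. Of the 2 RefSeq windows of RLN2, the one that aligned better to RLN1 was used. Capitals mark bases that differ or have no partner inside the alignment.
RLN1: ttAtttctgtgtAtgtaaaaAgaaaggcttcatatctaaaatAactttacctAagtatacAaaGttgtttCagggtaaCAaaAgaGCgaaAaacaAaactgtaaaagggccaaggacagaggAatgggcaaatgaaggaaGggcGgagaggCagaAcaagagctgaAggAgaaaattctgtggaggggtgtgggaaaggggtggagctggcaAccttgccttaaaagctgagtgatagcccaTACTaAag
RLN2: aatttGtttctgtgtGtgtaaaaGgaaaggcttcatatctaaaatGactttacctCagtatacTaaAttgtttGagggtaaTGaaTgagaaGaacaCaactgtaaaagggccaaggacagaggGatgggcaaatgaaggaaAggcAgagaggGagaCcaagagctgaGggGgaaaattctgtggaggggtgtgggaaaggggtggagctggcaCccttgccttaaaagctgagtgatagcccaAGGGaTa

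Short motifs were searched on both strands of these windows. The hexamer AGAACA, the core of steroid response elements, occurred once in each, at position 153 of the RLN1 window and at position 91 of the RLN2 window, counted from the 5′ end. The 2 matches are thus not at the same place of the alignment, and AGAACA is found in 12.4% of all 35116 RefSeq windows of this length. TTAAAA occurred at position 221 of RLN1 and 222 of RLN2 and is found in 16.4% of windows. GGGCGG, the GC box, occurred once in RLN1, at position 141, and not in RLN2, against 42.6% of all windows. TATAAA (10.7% of windows), CCAAT (32.0%), TGACG (21.2%) and CACGTG (6.34%) were in neither window. A match is a description of the letters and not a binding site.

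The libraries differed in depth, with total counts from 8661337 in LnCaP to 22433655 in LAPC4-CR. Protein-coding genes took 62.8% to 79.5% of the counts, and classes of small RNA 13.0% to 27.0%. In each pair the resistant library was the deeper one and had the larger protein-coding share. All 7 luminal prostate epithelium markers, among them the keratins KRT8 and KRT18, were at 1.31 scaled FPKM or more in every library, with summed levels of 285 to 512. HOXB13, a prostate homeobox factor on this list, was at 31.3 in LAPC4 and at 1.6 in LAPC4-CR, a log2 change of -3.63 in the pair with the RLN1 excess, and its part in that result was not tested. Levels are given as scaled FPKM, FPKM (counts per gene length and library size) divided by 1 factor per library, and all intervals cover counting error only, at 95%. Blood cell markers summed to between 1.62 and 3.48. Stromal markers summed to between 2.44 and 5.63 in 5 libraries and to 52.2 in VCaP-CR, where 50.1 came from LUM alone. The ERG level, high through a gene fusion in the VCaP lineage, was 16.9 in the parental line and 5.46 in VCaP-CR.

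RLN1 was abundant in 1 of the 6 lines. LnCaP held 74 counts of RLN1 against 35 for LnCaP-abl, VCaP held 4 against 10 for VCaP-CR, and LAPC4 held 7 against 4111 for LAPC4-CR. As scaled FPKM, LnCaP was at 7.33 and LnCaP-abl at 2.72, VCaP at 0.375 and VCaP-CR at 0.572, and LAPC4 at 0.497 and LAPC4-CR at 152. LAPC4-CR thus stood far above all others, the 2 LnCaP lines came next, and VCaP, LAPC4 and VCaP-CR lay together at the bottom. The counting intervals of LAPC4-CR (147 to 157), LnCaP (5.76 to 9.21) and LnCaP-abl (1.89 to 3.78) did not overlap. Those of VCaP (0.102 to 0.961), LAPC4 (0.2 to 1.02) and VCaP-CR (0.274 to 1.05) overlapped, so these 3 neighbours in the order did not differ beyond counting error. In LAPC4-CR RLN1 ranked 148th from the top of 11345 tested protein-coding genes by level, against 10882nd in LAPC4. Its rank was 4432 in LnCaP and 8444 in LnCaP-abl.

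**Figure D1:**
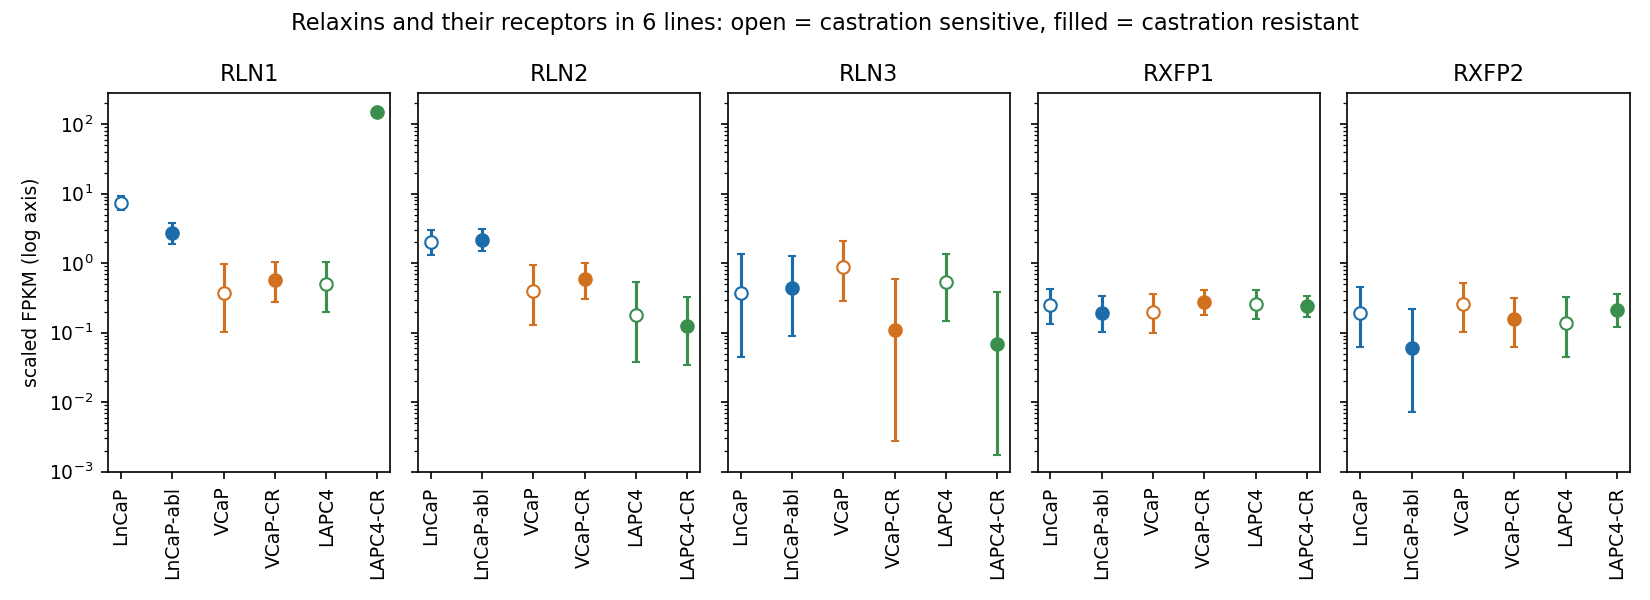
Scaled FPKM (log axis) of each gene in the 6 lines, with counting intervals at 95% as bars and open points for the castration-sensitive lines. RLN1 reaches 152 in LAPC4-CR, while RXFP1 lies between 0.195 and 0.276 in all 6 lines.

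The RLN1 difference was positive in the LAPC4 pair, negative in the LnCaP pair and not detectable in the VCaP pair. LAPC4-CR exceeded LAPC4 by 306-fold without a pseudocount (interval 148 to 761), and by 6.68 on the log2(scaled FPKM + 1) scale. LnCaP-abl was lower than LnCaP, at 0.371 of its level (0.241 to 0.562), a log2 change of -1.16 that came to -0.68, under 2-fold, with a pseudocount of 5 in place of 1. VCaP-CR was at 1.53 times the VCaP level with an interval from 0.44 to 6.66, a log2 change of 0.19, so no difference was detectable at this depth. On that log2 scale RLN1 was therefore 1 of 5 members at least 2-fold higher in the LAPC4 pair, where 5.25% of all 16248 tested genes were higher and 5.33% lower, and 1 of 5 at least 2-fold lower in the LnCaP pair, where 6.21% were. On the same scale no member was past 2-fold in the VCaP pair, in which 2.36% of tested genes were higher and 2.03% lower. These changes chose the members, so nothing is read from the counts.

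The RLN1 difference in the LAPC4 pair was the top one of 11345 tested protein-coding genes, and the next, S100A6, a calcium-binding protein, was at 5.26. In the LnCaP pair RLN1 ranked 326th from the bottom and in the VCaP pair 3240th from the top. RLN1 passed the filter of a mean of 1 scaled FPKM through the lines in which it is high, and it was the only 1 of the 5 members to pass.

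**Figure D2:**
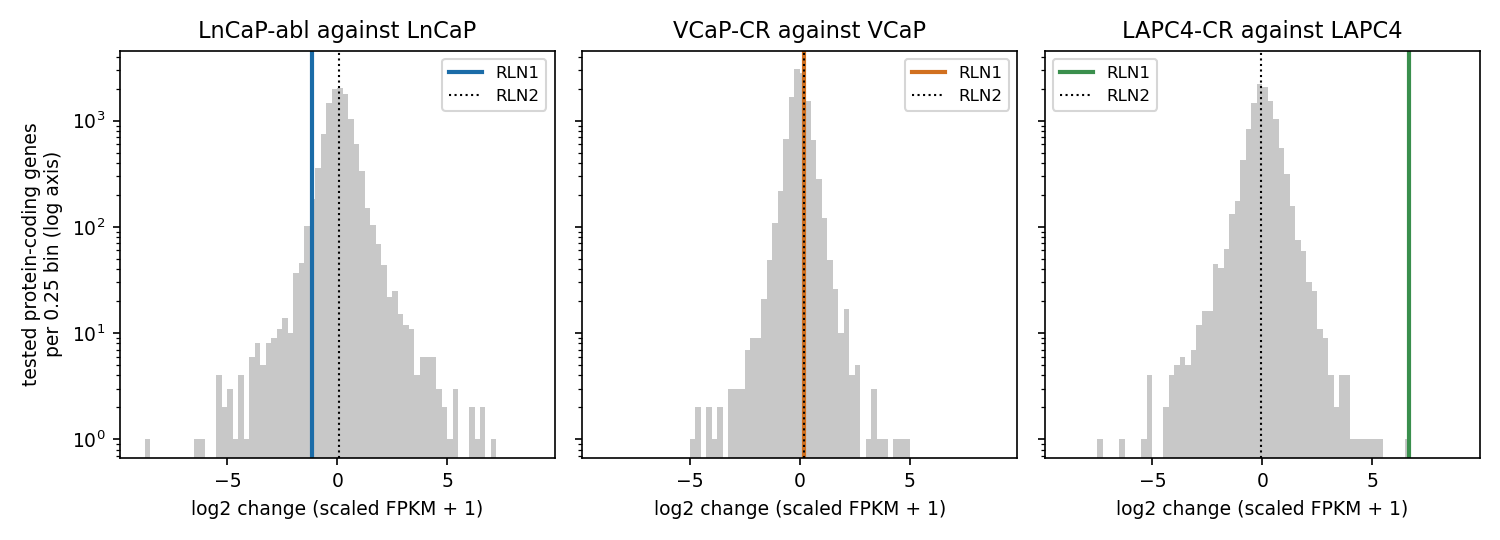
Histograms of the log2 change of all tested protein-coding genes in each pair (resistant minus sensitive, number of genes on a log axis), with solid lines for RLN1 and dotted lines for RLN2. RLN1 is at -1.16, 0.19 and 6.68 from left to right, and RLN2 is near 0 in all 3 panels.

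RLN2, the relaxin of circulation and seminal fluid, had 24 counts in LnCaP against 33 for LnCaP-abl, 5 in VCaP against 12 for VCaP-CR, and 3 in LAPC4 against 4 for LAPC4-CR. In that order the scaled FPKM values were 2.03, 2.19, 0.4, 0.585, 0.182 and 0.126. The LnCaP lines were the highest, and the intervals of LnCaP (1.3 to 3.02) and LnCaP-abl (1.5 to 3.07) lay above those of the other 4 lines, which reached at most 1.02. Among those 4, the LAPC4 values rest on 3 and 4 counts, and the intervals of LAPC4 (0.0375 to 0.531) and LAPC4-CR (0.0344 to 0.323) overlapped those of VCaP (0.13 to 0.933) and VCaP-CR (0.302 to 1.02). Resistant and parental line did not differ beyond counting error in any pair. LnCaP-abl was at 1.08 times LnCaP (0.618 to 1.91), VCaP-CR at 1.46 times VCaP (0.48 to 5.31) and LAPC4-CR at 0.694 times LAPC4 (0.117 to 4.74). The log2 changes were 0.07, 0.18 and -0.07. RLN2 missed the filter on low values, with a mean of 0.917 scaled FPKM.

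The balance of the 2 neighbouring genes was therefore different in LAPC4-CR. Per gene length, RLN1 stood at 3.62 times RLN2 in LnCaP (interval 2.26 to 6), at 1.24 times in LnCaP-abl (0.751 to 2.07), at 0.939 in VCaP (0.186 to 4.36), at 0.978 in VCaP-CR (0.378 to 2.47) and at 2.74 in LAPC4 (0.625 to 16.4). In LAPC4-CR it stood at 1206 times RLN2 (471 to 4429). The interval included 1 in LnCaP-abl, VCaP, VCaP-CR and LAPC4, and in LnCaP and LAPC4-CR it lay above 1. RLN2 took 4 of the 4115 counts of both genes in LAPC4-CR, a share of 0.0972% (exact binomial interval 0.0265% to 0.249%). RLN1 reads counted on RLN2 in that library can thus number at most 4.

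**Figure D3:**
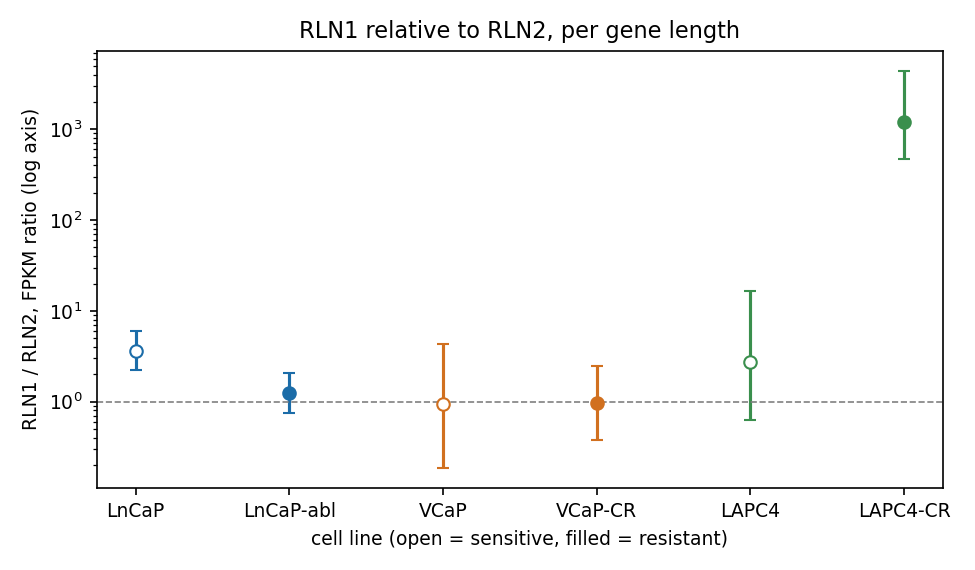
Ratio of RLN1 to RLN2 per gene length in each line (log axis, 95% exact binomial intervals as bars, dashed line at equal levels). LAPC4-CR is at 1206 and the other 5 lines lie between 0.939 and 3.62.

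RLN3, the neuropeptide relaxin (ENSG00000171136, chr19:13999960-14002854), was at 5 counts or fewer in every library. There were 2 counts in LnCaP against 3 for LnCaP-abl, 5 in VCaP against 1 for VCaP-CR, and 4 in LAPC4 against 1 for LAPC4-CR, or 0.372, 0.438, 0.881, 0.107, 0.534 and 0.0695 scaled FPKM. The resistant line was lower in the VCaP and LAPC4 pairs, but the ratios of 0.122 (0.00258 to 1.09) and 0.13 (0.00264 to 1.32) had intervals that included 1. In the LnCaP pair the ratio was 1.18 (0.135 to 14.1).

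RXFP1, the relaxin receptor (ENSG00000171509, chr4:159455913-159793974), was low in every line. In the same order of lines it had 13, 13, 11, 25, 19 and 34 counts. The scaled FPKM values were 0.248, 0.195, 0.199, 0.276, 0.26 and 0.242, and all their intervals overlapped. LnCaP-abl was at 0.784 times LnCaP (0.335 to 1.84), VCaP-CR at 1.39 times VCaP (0.658 to 3.12) and LAPC4-CR at 0.932 times LAPC4 (0.517 to 1.73). The level of the receptor thus did not differ beyond counting error in the pair in which RLN1 was 306-fold higher. Between 12.5% and 25.2% of protein-coding genes were below RXFP1 in each library. The entry overlaps 3 other entries of the tables, U4, RP11-781M16.1 and RP11-781M16.2. The list of 8 stromal markers, which these epithelial lines should lack, spanned 0.0875 to 0.957 scaled FPKM with LUM set aside. That range includes all RXFP1 levels.

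RXFP2, the INSL3 receptor (ENSG00000133105, chr13:31211674-31275009), was also low in every line, and its intervals overlapped those of RXFP1. There were 5 counts in LnCaP against 2 for LnCaP-abl, 7 for both VCaP and VCaP-CR, and 5 in LAPC4 against 15 for LAPC4-CR, or 0.192, 0.0603, 0.255, 0.155, 0.138 and 0.215 scaled FPKM. The ratio of resistant to parental line was 0.314 (0.0299 to 1.92) for LnCaP, 0.61 (0.183 to 2.04) for VCaP and 1.56 (0.54 to 5.49) for LAPC4, and each interval included 1.

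Among the other relaxin family genes, INSL6 and RXFP4 each stood out in 1 lineage. INSL6, a family peptide of the testis that lies close to RLN2, had 11 counts in VCaP, 50 in VCaP-CR, against 0 in LnCaP, 1 in LnCaP-abl, 1 in LAPC4 and 9 in LAPC4-CR. That is 1.48 scaled FPKM for VCaP against 4.11 for VCaP-CR, a ratio of 2.77 (1.43 to 5.91), and 0.478 or less elsewhere. With a limit of 3 counts, the 0 in LnCaP allows up to 0.427 scaled FPKM, and its exact interval reaches 0.525. RXFP4, the receptor of the gut hormone INSL5, was at 66 counts (4.46 scaled FPKM) in LAPC4 and at 6 counts (0.211) in LAPC4-CR, 21.1-fold lower (9.21 to 59.6). In the other 4 lines RXFP4 was between 0.178 and 0.272 scaled FPKM. The pair with the RLN1 excess thus had the opposite difference in this receptor. INSL3, the ligand of RXFP2, lay between 0.12 and 0.283 scaled FPKM in the 6 lines. INSL4 lay between 0.173 and 0.396, INSL5 between 0.169 and 1.05, and RXFP3, the RLN3 receptor, between 0.123 and 0.428. RXFP3 had a ratio of resistant to parental line of 0.409 in the LAPC4 pair (0.168 to 0.97). Of the leucine-rich repeat receptors related to RXFP1, LGR4, an R-spondin receptor, was the only one tested, at 2.56 to 23.8. LGR5, LGR6, FSHR, LHCGR and TSHR lay between 0.107 and 0.634. Some ratios of these receptors had intervals that left out 1. LGR4 was at 1.74 (1.61 to 1.88) in the VCaP pair and 0.61 (0.531 to 0.701) in the LAPC4 pair. LGR6 was at 0.409 (0.186 to 0.857) in the LnCaP pair and 1.98 (1.2 to 3.42) in the LAPC4 pair. LHCGR was at 0.597 (0.384 to 0.93) in the LAPC4 pair.

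The 3 pairs together gave the only test that the design allows. With edgeR (quasi-likelihood test, parental line as a block, Benjamini-Hochberg adjustment), 0 of 16248 genes passed the 5% threshold as higher and 0 as lower (0% each), the lowest adjusted value being 0.307. Without adjustment, 729 higher and 556 lower genes had p under 0.05. DESeq2 called 84 higher and 55 lower, and limma 0 and 0. The following pathway genes are therefore described by their levels and by counts past 2-fold in each pair.

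Prohormone processing enzymes cut and trim peptide precursors such as prorelaxin, and 7 of 12 were tested. PCSK1 and PCSK2, the neuroendocrine convertases, were untested at 0.667 scaled FPKM or less in every line. CPE, the carboxypeptidase that trims peptides after convertase cleavage, was higher in 3 of 3 resistant lines. LnCaP had 15.8 scaled FPKM against 35.5 for LnCaP-abl, VCaP had 6.32 against 31.1 for VCaP-CR, and LAPC4 had 5.62 against 15.8 for LAPC4-CR. The adjusted p of CPE was 0.587 in edgeR and 0.0019 in DESeq2, and edgeR without a filter on low values gave an adjusted p of 0.0209. FURIN, the ubiquitous convertase, was at 2.42 scaled FPKM in LnCaP and 13.5 in LnCaP-abl, a log2 change of 2.09, against 0.39 and -0.18 in the VCaP and LAPC4 pairs. MBTPS1, a related protease, had a log2 change of 1.14 in the LnCaP pair, and CPD, another carboxypeptidase, had 1.13 in the LAPC4 pair. In all, 3 of the 7 were at least 2-fold higher in the LnCaP pair (6.25% of all tested genes), against 1 in the VCaP (2.36%) and 2 in the LAPC4 pair (5.25%). None of the 7 was at least 2-fold lower in any pair, where 6.21%, 2.03% and 5.33% of all tested genes were. Pair by pair (LnCaP, VCaP, LAPC4), their median log2 change was 0.44, 0.07 and -0.14, against -0.01, -0.01 and -0.02 over all tested genes.

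Of 28 genes for G proteins, adenylyl cyclases, protein kinase A and their partners, which carry the cyclic AMP signal, 20 were tested. ADCY8, a calcium-stimulated adenylyl cyclase, was at 90.8 scaled FPKM in LnCaP and 0.227 in LnCaP-abl, a log2 change of -6.23, and at 0.234 in LAPC4 and 1.82 in LAPC4-CR, a change of 1.20. RLN1 had the same pair of signs. ADCY8 passed the filter on low values only through LnCaP, so nothing is read from its being counted as lower in that pair. GNAI1, an inhibitory G protein subunit, was lower in 3 of 3 resistant lines, with log2 changes of -2.63 for LnCaP, -0.37 for VCaP and -1.59 for LAPC4 (edgeR adjusted p 0.598). PRKAR2B, a regulatory subunit of protein kinase A, was higher in 3 of 3, with 1.06, 0.86 and 1.71 (edgeR adjusted p 0.587, DESeq2 adjusted p 0.0327). In the LAPC4 pair ADCY6 and the catalytic subunit PRKACB also had log2 changes of 1.33 and 1.30. In the LnCaP pair PDE4D, which degrades cyclic AMP, had 1.20 and ADCY9 had 1.08. GNAS, the stimulatory subunit itself, had 0.89, 0.48 and 0.46. At least 2-fold higher were 3 of the 20 for LnCaP (6.25% of all tested genes), 0 for VCaP (2.36%) and 4 for LAPC4 (5.25%). At least 2-fold lower were 2 (6.21%), 0 (2.03%) and 1 (5.33%). The medians were 0.14, -0.03 and 0.19.

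Of 23 genes listed here as relaxin pathway targets, only 6 passed the filter on low values. The matrix metalloproteinases MMP1, MMP2, MMP3 and MMP9 were at 0.415 scaled FPKM or less in every line. MMP13, a collagenase, was at 6.36 in LAPC4 and 0.384 in LAPC4-CR, a log2 change of -2.41, in the pair in which RLN1 was higher. MMP13 passed the filter only through LAPC4, with 1.1 or less in every other line. It is the gene counted as lower in that pair below, so nothing is read from that count. TIMP2, a metalloproteinase inhibitor, was at 3.09 in LnCaP and 8.81 in LnCaP-abl, a change of 1.26. VEGFB, a vascular growth factor, had 1.07 in the LnCaP pair and 1.30 in the VCaP pair. VEGFA had 0.08, -0.13 and -0.97. Of the 6, at least 2-fold higher were 2 for LnCaP (6.25% of all tested genes), 1 for VCaP (2.36%) and 0 for LAPC4 (5.25%). Lower were 0 (6.21%), 0 (2.03%) and 1 (5.33%). The medians of the log2 change were 0.52, -0.16 and -0.15.

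**Figure D4:**
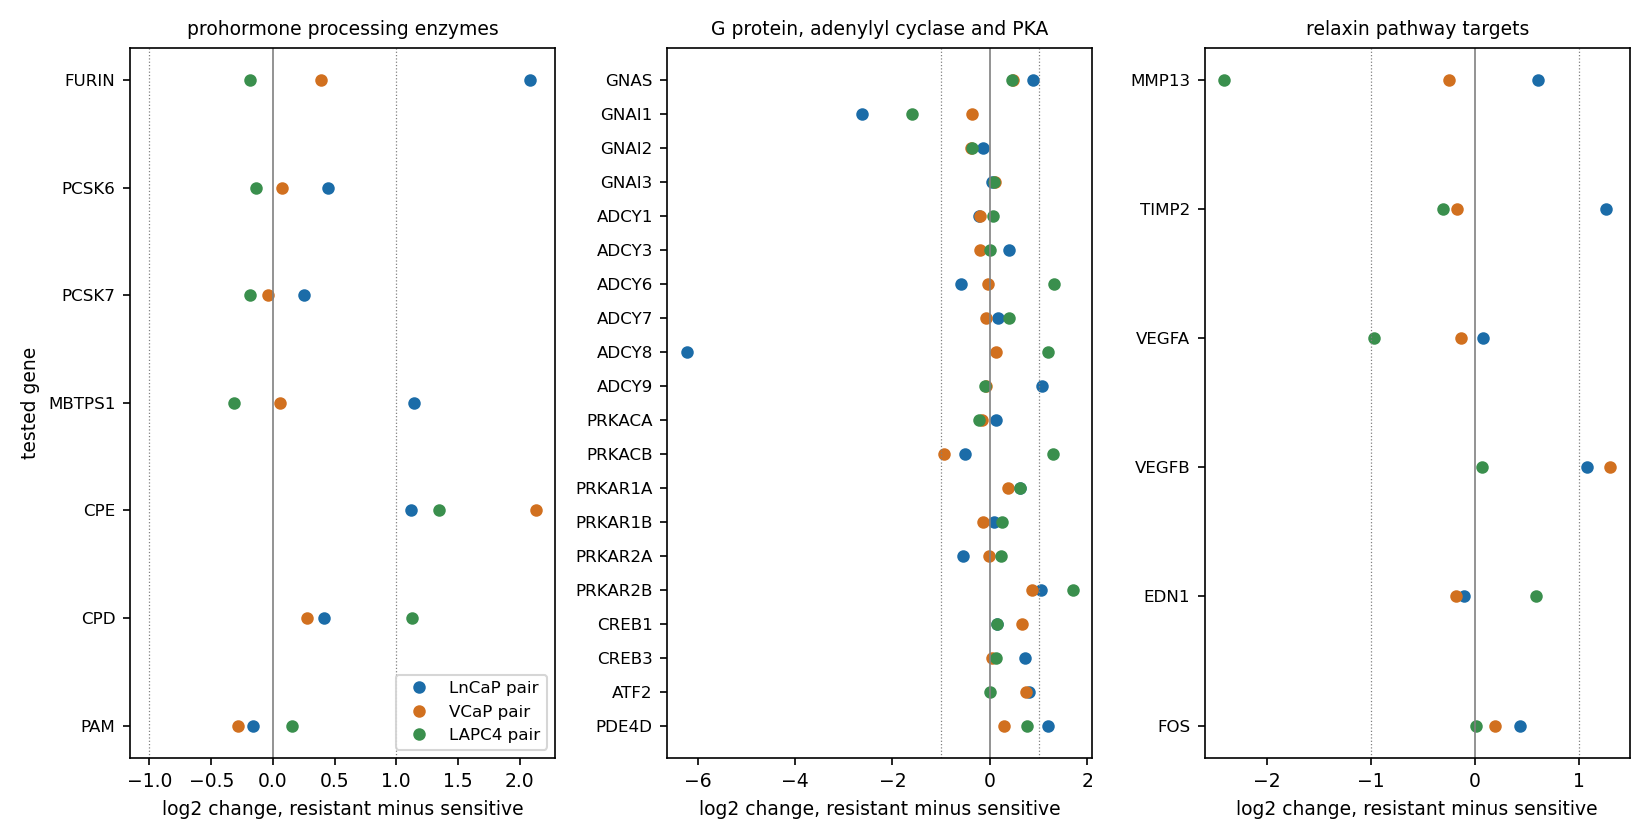
Log2 change (resistant minus sensitive, scaled FPKM + 1) of each tested gene of 3 pathway lists, coloured by pair, with dotted lines at 2-fold. CPE is right of 1 in all 3 pairs and ADCY8 is at -6.23 in the LnCaP pair.

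The neighbours of RLN1 on chromosome 9 were examined next. Within 1 Mb on either side lie 19 other protein-coding genes that are no members, of which 12 were tested. In the LAPC4 pair 11 of the 12 were higher in the resistant line and 1 lower, with a median log2 change of 0.57 against 0.03 over all tested protein-coding genes. In the LnCaP pair 10 of the 12 were lower and 2 higher, with a median of -0.52 against 0.08. The neighbours thus had mostly the sign of RLN1 in both of these pairs, at a far smaller size in the LAPC4 pair. In the VCaP pair 10 of the 12 were higher and 2 lower, with a median of 0.34 against -0.01. Beyond 20 Mb on the chromosome, 220 of 404 tested protein-coding genes were higher in the LAPC4 pair and 152 in the VCaP pair, and 268 were lower in the LnCaP pair. INSL6, tested through its VCaP levels, counts as higher in the LAPC4 pair on 1 against 9 counts. In the LnCaP pair it does so on 0 against 1, and both intervals of its change include 0.

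SLC1A1, a glutamate transporter, differed most among these neighbours. Its log2 change was 1.83 for LAPC4, 1.36 for VCaP and -1.66 for LnCaP. ERMP1 had 1.18 and KIAA1432 had 0.91 in the LAPC4 pair. C9orf46, the next protein-coding gene beyond RLN1, had only 0.18 there and -0.97 in the LnCaP pair. JAK2, a cytokine receptor kinase, had 0.29 and 0.37. At least 2-fold higher were 2 of the 12 in the LAPC4 pair (5.25% of all tested genes) and 2 in the VCaP pair (2.36%), and 1 was lower in the LnCaP pair (6.21%). None of the 12 was called by edgeR, in which the smallest adjusted p was 0.589, or by DESeq2, and 1 had an unadjusted p under 0.05.

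Farther away on the chromosome the medians were nearer to 0 or of another sign. These distances were chosen after the values within 1 Mb had been seen. Of 9 tested protein-coding genes between 1 and 5 Mb from RLN1, 6 were higher in the LAPC4 pair (median 0.17) and 6 were higher in the LnCaP pair (median 0.31). Of 21 between 5 and 20 Mb, 10 were higher in the LAPC4 pair (median -0.03) and 7 in the LnCaP pair (median -0.14). Beyond 20 Mb the medians of 404 genes were 0.05 and -0.17. The difference between these distances was not tested.

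**Figure D5:**
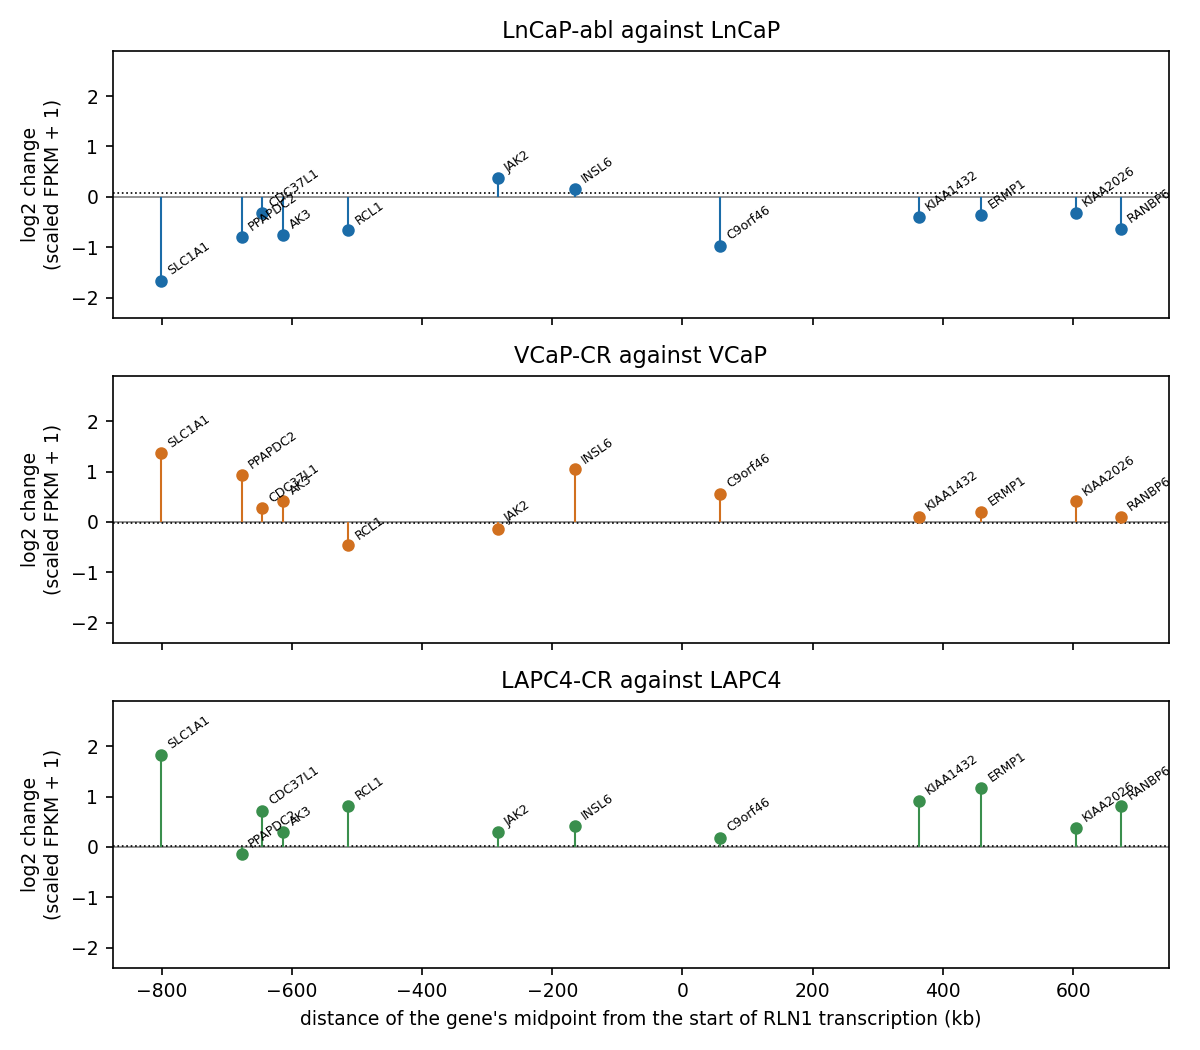
Log2 change (scaled FPKM + 1) of the 12 tested protein-coding genes within 1 Mb of RLN1, by distance of the gene's midpoint from the RLN1 start, RLN1 and RLN2 not drawn; dotted lines give the median of all tested protein-coding genes. Most points are above 0 in the LAPC4 pair (11 of 12) and below 0 in the LnCaP pair (10 of 12).

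Genes with the pattern most like RLN1 were taken by Pearson's r over the 6 libraries, among 2083 protein-coding genes that varied at least 4-fold on the log2(scaled FPKM + 1) scale. The 5 highest were HOXB9 (0.996), SAMHD1 (0.989), AMOT (0.976), S100A4 (0.975) and SKAP1 (0.974). Spearman's rho was 0.829 for HOXB9, AMOT and S100A4, 0.943 for SAMHD1 and 0.771 for SKAP1, and the values are a description, since the genes share the 6 libraries and their depths. The r rests largely on LAPC4-CR, which is the highest library for all 5. HOXB9, a homeobox factor, was at 5.54 scaled FPKM in LAPC4-CR, 1.44 in LnCaP, 0.751 in LnCaP-abl and at most 0.378 in the other 3. SAMHD1, a dNTP hydrolase, was at 13.3 in LAPC4-CR and at 2.45 to 4.47 in the other 5. AMOT, an angiomotin of cell junctions, was at 8.3 in LAPC4-CR and S100A4, a calcium-binding protein, at 8.37, against at most 1.79 elsewhere for either. SKAP1, an adaptor of lymphocyte signalling, was at 4.17 in LAPC4-CR and at most 1.13 elsewhere. None of these 5 reached the RLN1 level of 152 in LAPC4-CR, and the largest log2 change among them in the LAPC4 pair was 2.45.

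KLK3 was set beside RLN1 as a check of the labels. KLK3, which encodes prostate-specific antigen and is induced by androgens, was lower in 3 of 3 resistant lines, with log2 changes of -8.53, -4.03 and -5.18, respectively, for LnCaP, VCaP and LAPC4. RLN1 was lower, not detectably different and higher in the same order. Its sign was that of KLK3 in the LnCaP pair and the opposite one in the LAPC4 pair.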

How the data were processed

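RNA of 6 lines was measured, 1 library each. Per the labels' protocols, total RNA came from RNeasy purification and libraries from the SOLiD Total RNA-Seq kit. Per the submitters' processing notes, HTSeq and hg18 were used. The aligner, annotation and strand setting were not given in the sources used here. The deposited tables hold whole-number counts per gene for 51698 entries and FPKM values, which the authors had divided by gene length and by summed counts (rebuilt within 0.0445% where counts exceeded 20). LAPC4-CR has no length column, so the lengths of the other 5 tables were used.

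Entries sharing a symbol were summed (345 of 47032 symbols). The 4234 symbols whose class is a small RNA or its pseudogene were left out. FPKM was scaled by median-of-ratios factors from the 11620 genes that reached 1 FPKM in every library (0.848 to 1.11). Changes are log2(scaled FPKM + 1), resistant minus sensitive, which understates changes of low genes. Ratios carry exact conditional binomial intervals and levels exact Poisson intervals (95%, counting error only). PCR copies are not independent molecules. A count of 0 was given a limit of 3 counts.

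Genes whose mean scaled FPKM reached 1 were tested (16248, of which 11345 protein-coding) on counts with edgeR 4.0.16 (TMM, R 4.3.3), threshold 5%. The parental line was a block because resistant lines carry the parental names. Deviations from group means correlated at 0.46, 0.73 and 0.59 within the LnCaP, VCaP and LAPC4 pairs. DESeq2 1.42.0 and limma 3.58.1 were alternatives. The edgeR step was also run on simulated counts with a common dispersion and no differences between lineages. The real lines differ in both respects, so that run cannot bear on the calls in these data. Sequences came from RefSeq (GRCh38.p14) and GENCODE release 29 and were aligned with Biopython 1.88. All 5 members matched a RefSeq window. Protein sequences were not used here.

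Members, lists and the rule for named genes were chosen with earlier results of these data known. The rule named all members, all genes of lists of 6 or fewer, of longer lists up to 3 genes per direction past 2-fold in the LnCaP and LAPC4 pairs, the RLN1 neighbours within 1 Mb, the gene next to RLN1 in the order of changes, the 5 genes most like RLN1, and KLK3 and ERG as label checks. Some genes of the fixed lists are not reported here. Named outside it, after their values were seen, were PCSK1, PCSK2, GNAS, MMP1, MMP2, MMP3, MMP9, VEGFA, KRT8, KRT18 and LUM.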

Additional observations from a re-analysis of the deposited data

Results flagged for a closer look

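Only the members, the genes of the fixed lists and the RLN1 neighbours are considered here. Given are those at least 2-fold higher in the resistant line of 1 pair and at least 2-fold lower in that of another. RLN1 was selected for this pattern, and the share of all tested genes that have it was not counted. With 1 library per line, the difference between pairs was not tested. RLN1 was higher in LAPC4-CR and lower in LnCaP-abl, and its log2 changes differed by 7.84 between these pairs. ADCY8 had the same directions, with a difference of 7.42. SLC1A1, a neighbour of RLN1, was higher in LAPC4-CR and in VCaP-CR and lower in LnCaP-abl, with differences of 3.49 and 3.02.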

How the results depend on the processing

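The RLN1 changes kept their sign under each pseudocount and scaling that was run. RLN1 in the LnCaP pair came to -0.68 with a pseudocount of 5 and was then under 2-fold. In the LAPC4 pair RLN1 came to 7.67 with a pseudocount of 0.25 and 4.84 with 5. The other RLN1 and RLN2 values stayed within their counting intervals.

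Over the 3 pairs, edgeR called 0 genes higher and 0 lower. DESeq2 called 84 and 55, and with no minimum level edgeR called 60 and 40. Without the replicate block, that is without the pairing by parental line, edgeR called 0 and 0. When a single pair was dropped, higher calls ranged from 0 to 8 and lower calls from 1 to 14: 0 and 5 with LnCaP dropped, 8 and 14 with VCaP dropped, 2 and 1 with LAPC4 dropped.

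Genes at least 2-fold higher or lower numbered 1016 and 1009 in the LnCaP pair, 384 and 330 in the VCaP pair, and 853 and 866 in the LAPC4 pair. A pseudocount of 5 gave 359 and 301, 124 and 82, and 253 and 316. A pseudocount of 0.25 gave 1611 lower in the LnCaP pair, 690 and 591 in the VCaP pair, and 1308 and 1347 in the LAPC4 pair. Protein-coding genes alone gave 828 and 458 in the LnCaP pair, 240 higher in the VCaP pair and 533 lower in the LAPC4 pair. A larger pseudocount draws each log2 change toward 0, and the protein-coding counts are out of 11345 genes in place of 16248.

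The median change of the genes within 1 Mb of RLN1 kept its sign in all 3 pairs under the 4 alternatives, which were added after seeing the data. Depth limits RLN3 and RXFP2 in all lines, RLN2 outside the LnCaP lines, and RLN1 outside the LnCaP lines and LAPC4-CR.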
